A study of Mus musculus with 6 samples.

Results

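The collagen genes of the mouse were followed in polyadenylated RNA of the adult cerebral cortex. They were taken as every protein-coding gene of the GENCODE M21 annotation whose symbol has the form of a collagen chain (Col, a type number, a, a chain number). This gave 44 genes of 55450 in the tables, of which 21951 are protein-coding. They were grouped into 11 fibrillar chains, 6 type IV chains of the basement membrane and 27 other chains. The libraries came from 3 samples labelled heterozygous for Setd5, a gene for a SET-domain chromatin protein, and 3 labelled wild type. The labels used here do not name the allele, strain, sex or exact age, nor whether libraries of a genotype came from separate animals, so that p-values measure only the spread between these libraries.

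Collagens are extracellular proteins in which 3 chains wind into a triple helix. Fibrillar collagens pack into the banded fibrils of connective tissue, which in the brain lie mainly in the meninges and around larger vessels. Type IV chains form the sheet-like network of basement membranes, under the endothelium of brain vessels and at the pial surface. The remaining families decorate fibrils, build fine filaments or span the cell membrane, and some of them are made by neurons.

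Each library held between 82850628 and 92860628 gene counts. Setd5 was at 69.5, 68.7 and 75.3 CPM (counts scaled to library size) in the heterozygous libraries and at 111, 97.0 and 108 CPM in wild type, so the groups did not overlap. Its edgeR quasi-likelihood adjusted p was 0.258, so it was not called by the test used for the collagen genes. It passed in DESeq2 (adjusted p 3.08e-07), in edgeR's likelihood ratio test (7.31e-05), with every gene of at least 1 count tested (0.0119) and in limma-voom when libraries were weighted by quality (0.0444), and its log2 difference ran from -0.62 to -0.52 with single libraries left out. The label of cortex was met by the 10 markers of cortical excitatory neurons, whose summed level was 1380 to 1530 CPM in heterozygous and 1350 to 1460 CPM in wild type libraries. The sum of 7 striatal neuron markers differed far more between libraries, from 267 to 554 CPM in heterozygous and from 172 to 1240 CPM in wild type libraries, with the highest value in wild type replicate 3. Xist counts were 78747 in heterozygous replicate 3 and 69096 in wild type replicate 3, and between 38 and 78 in the other 4 libraries. Wild type replicate 3 thus stands apart from the other wild type libraries in more than one respect, and values without it, or without another library, are given where this moves a collagen value by more than 1.5 times or turns its direction.

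Collagen transcripts took between 0.0261% and 0.0339% of the counts of a library. Every chain had at least 4 counts in every library, and 15 of the 44 had a mean of at least 1 CPM per kilobase of exon, the scale used here to compare genes. Col6a1, a chain of the beaded filaments of type VI, had the highest mean level at 8.19 CPM per kilobase. It was followed by the ubiquitous basement membrane chains Col4a2 at 3.26 and Col4a1 at 3.06, and by Col19a1, a fibril-associated chain made by interneurons, at 2.84 CPM per kilobase. Next came Col9a3, a chain of type IX, at 2.12, the neuronal transmembrane chain Col25a1 at 2.08 and Col5a1, a chain of the fibril-nucleating type V, at 2.03 CPM per kilobase. The neighbours from Col4a2 to Col19a1 and from Col9a3 to Col5a1 lie within the spread of their libraries. The lowest was Col2a1, the main collagen of cartilage, at 0.0224 CPM per kilobase.

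**Figure D1:**
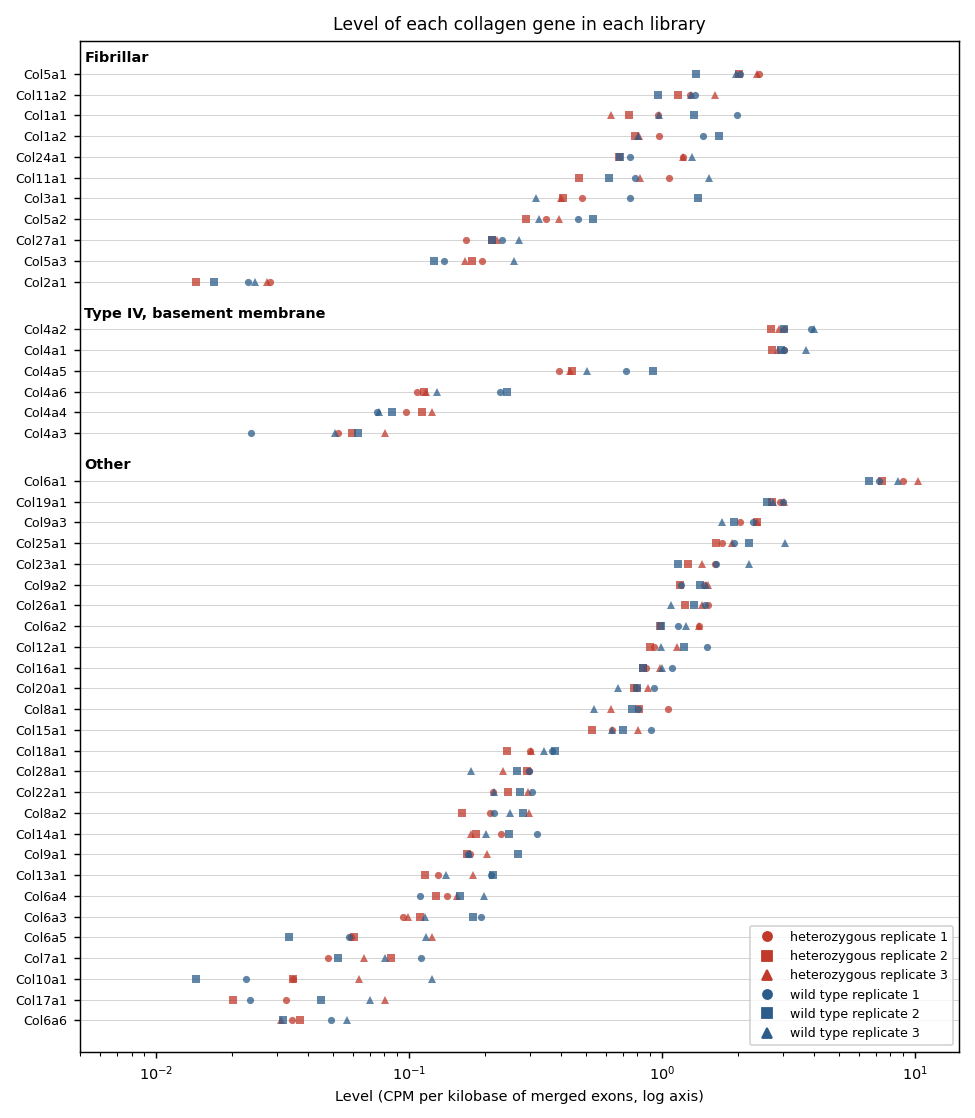
Level of each of the 44 collagen genes in CPM per kilobase of merged exons (log axis), ordered by mean within each group, with a symbol for each of the 6 libraries. Col6a1 has the highest mean, at 8.19 CPM per kilobase, and Col2a1 the lowest, at 0.0224. Wild type replicates 1 and 2 lie to the right of the other 4 libraries for the fibrillar Col1a1, Col1a2, Col3a1 and Col5a2. They do so also for Col4a5, Col4a6, Col6a3, Col12a1, Col13a1, Col14a1 and Col18a1.

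The comparison of genotypes asked whether collagen transcripts differ in cortex when Setd5 is altered on a single copy. Chains of type I and type III fibrils, the X-linked basement membrane chains Col4a5 and Col4a6, and the type VI chain Col6a3 had the lowest fitted levels relative to wild type, with log2 differences between -0.92 and -0.62. The abundant vessel chain Col4a1 differed by -0.17 and the abundant Col6a1 by 0.25. No collagen gene passed the edgeR quasi-likelihood test after Benjamini-Hochberg adjustment over all 27939 genes tested. The 43 members tested gave 0 lower and 0 higher at an adjusted p under 0.05, and the share over all genes was 0.0% in each direction. Col10a1, the collagen of hypertrophic cartilage, had too few counts to be tested. DESeq2 called 1 member, Col1a1, as lower, against 0.165% of all genes lower and 0.0573% higher. edgeR's likelihood ratio test called 0 members, against 0.0573% of all genes lower and 0.0465% higher. With limma-voom 0 members and 0 genes over the whole table were called, and with library quality weights 0 members and 2 genes.

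Below that threshold the members leaned to lower levels in heterozygous cortex. Of the 43 tested, 26 (60.5%) had a fitted level below wild type, against 50.1% of all genes, and the median log2 difference was -0.16 against -0.00 over all genes tested. Leaving out heterozygous replicate 2 brought this median to -0.07, and leaving out wild type replicate 3 brought it to -0.08. At an unadjusted p under 0.05 there were 9 lower members (20.9%), where 3.38% of all genes were lower, and 2 higher members (4.65%), where 2.44% of all genes were higher. The lower members were Col1a1, Col1a2, Col3a1, Col4a2, Col4a5, Col4a6, Col6a3, Col18a1 and Col25a1, and the higher ones were Col4a4 and Col5a1. The count of lower members dropped to 4 on leaving out heterozygous replicate 2, to 5 on leaving out wild type replicate 1, and was 12 without wild type replicate 3. The heterozygous libraries were all below the wild type libraries for 6 members (14.0%, against 5.85% of all genes) and all above them for 1 (2.33%, against 5.88%). The summed level of all 44 genes overlapped between genotypes, at 262 to 314 CPM in heterozygous and 304 to 332 CPM in wild type libraries. Collagen genes are often made by the same cells, so these members are not independent of each other. In whole tissue, fewer cells of a type and less RNA per cell cannot be told apart.

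**Figure D2:**
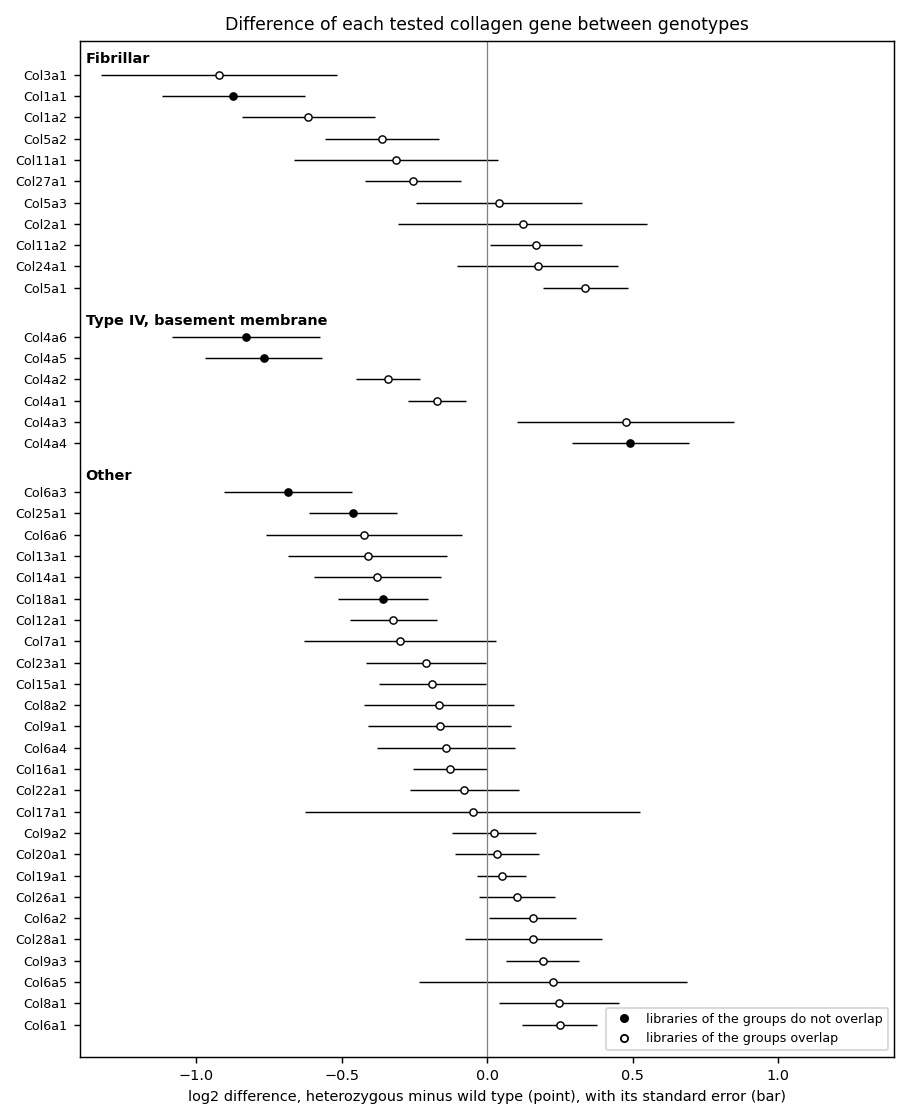
Fitted log2 difference (heterozygous minus wild type) of the 43 collagen genes tested, with its standard error as a bar, ordered within each group. Filled points mark the 7 genes whose libraries do not overlap between genotypes, of which Col4a4 is the one on the higher side.

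Among fibrillar collagens, 6 of 11 chains had a fitted level below wild type and 5 above, and their median difference was -0.25 in log2. Leaving out wild type replicate 3 turned this median to 0.17, with 5 of 11 chains below wild type, so the sign of the median rests on that library. The mean log2 level of the chains does not, as wild type replicate 3 lay at the wild type mean. Set to 0 at that mean, it was -0.03, -0.42 and -0.11 in heterozygous and 0.07, -0.07 and 0.0 in wild type replicates 1 to 3. Dropping heterozygous replicate 2 moved the median to -0.05, and dropping heterozygous replicate 1 moved it to -0.14. Col1a1 (ENSMUSG00000001506.10, GRCm38 chromosome 11, 94936224 to 94953042, plus strand) encodes a chain of type I collagen, the main fibril of the meninges. It was at 6.35, 4.86 and 4.13 CPM in heterozygous replicates 1 to 3 and at 13.0, 8.75 and 6.41 CPM in wild type replicates 1 to 3. Each heterozygous library was below each wild type library, but heterozygous replicate 1 and wild type replicate 3 were nearly level. On the log2 scale it differed by -0.87, with 0.25 as standard error (SE) and 0.789 as edgeR adjusted p. DESeq2 gave an adjusted p of 0.0399, and over all alternatives it ran from 0.0399 to 1.0. The log2 difference of Col1a1 was -0.57 without wild type replicate 1.

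Col1a2, the partner chain in type I collagen (ENSMUSG00000029661.16, chromosome 6, 4504814 to 4541544, plus strand), was at 12.1, 9.73 and 10.1 CPM in heterozygous and 18.1, 20.8 and 9.95 CPM in wild type libraries. Wild type replicates 1 and 2 were high, and replicate 3 lay among the heterozygous libraries. The log2 difference was -0.62 (SE 0.23), or -0.40 without wild type replicate 2 and -0.87 when replicate 3 was left out instead. Col3a1, the chain of type III fibrils that accompany type I in vessel walls and meninges (ENSMUSG00000026043.18, chromosome 1, 45311538 to 45349706, plus strand), was at 4.74, 3.99 and 3.93 CPM against 7.31, 13.6 and 3.12 CPM. Here wild type replicate 3 was the lowest of all 6 libraries and wild type replicate 2 the highest. The log2 difference of -0.92 (SE 0.41) became -0.31 on leaving out wild type replicate 2 and -1.30 on leaving out wild type replicate 3. Col5a2, a type V chain that lies tail to tail with Col3a1, differed by -0.36 (SE 0.20).

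Other fibrillar chains did not share this pattern. Col5a1 (ENSMUSG00000026837.15, chromosome 2, 27886425 to 28039514, plus strand), the most abundant fibrillar chain, was at 20.5, 17.2 and 20.1 CPM in heterozygous and 17.3, 11.6 and 16.7 CPM in wild type libraries. Heterozygous replicate 2 was just under wild type replicate 1, so the groups overlapped. Its log2 difference was 0.34 (SE 0.15), and 0.17 without wild type replicate 2. Col11a2, a chain of the cartilage fibril type XI (ENSMUSG00000024330.17, chromosome 17, 34039437 to 34066685, plus strand), was at 8.90, 7.97 and 11.1 CPM against 9.29, 6.65 and 8.94 CPM, with overlapping groups and a log2 difference of 0.17 (SE 0.16). Leaving out heterozygous replicate 3 gave 0.02, and leaving out wild type replicate 2 gave 0.03, while leaving out heterozygous replicate 2 gave 0.27 and wild type replicate 1 0.26. Its partner Col11a1 was high in wild type replicate 3 at 19.5 CPM and ranged from 5.97 to 13.6 CPM elsewhere, for a log2 difference of -0.31 (SE 0.35). The remaining fibrillar chains Col24a1, Col27a1, Col5a3 and Col2a1 had log2 differences between -0.25 and 0.17 and overlapping groups. The summed level of all 11 chains was 61.7 to 82.5 CPM in heterozygous and 83.3 to 89.3 CPM in wild type libraries. These sums did not overlap, by a margin as small as that between 82.5 and 83.3 CPM.

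The 6 type IV chains divided by gene pair. They lie in head-to-head pairs, the chains of a pair starting close together on opposite strands: Col4a1 with Col4a2 on chromosome 8, Col4a3 with Col4a4 on chromosome 1, and Col4a5 with Col4a6 on the X chromosome. The Col4a1 and Col4a2 pair had fitted levels slightly below wild type, the X-linked pair lay furthest below, and the Col4a3 and Col4a4 pair lay above. The median over the 6 chains was -0.26, or -0.165 without wild type replicate 3. The median of all 6 libraries lies between Col4a2 (-0.34) and Col4a1 (-0.17), and describes neither of the other pairs.

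Col4a5 and Col4a6 encode chains that join each other in the basement membranes of smooth muscle. Both had libraries that did not overlap between genotypes, and the stretches upstream of their starts are shown because the pair lies head to head, 1308 bases apart in GENCODE M21. The windows come from RefSeq promoters (GRCm38.p6), cut to bases outside annotated exons, 5′ to 3′ on the strand of each gene. They are chrX:141474077-141474326 on the minus strand for Col4a6 and chrX:141475169-141475384 on the plus strand for Col4a5. Capitals mark a GC box (GGGCGG or its reverse complement CCGCCC) or a CCAAT box (CCAAT or ATTGG).
Col4a6: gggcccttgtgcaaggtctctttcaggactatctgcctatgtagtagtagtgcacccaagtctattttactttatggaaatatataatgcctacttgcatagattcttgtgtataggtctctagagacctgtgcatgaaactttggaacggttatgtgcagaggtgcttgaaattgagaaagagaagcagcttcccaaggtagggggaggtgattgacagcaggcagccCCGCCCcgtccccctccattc
Col4a5: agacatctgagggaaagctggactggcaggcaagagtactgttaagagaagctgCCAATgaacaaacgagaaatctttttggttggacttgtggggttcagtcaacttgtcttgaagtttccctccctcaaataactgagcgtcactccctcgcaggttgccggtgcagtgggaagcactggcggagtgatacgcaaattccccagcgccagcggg
The printed Col4a6 window holds a GC box and the printed Col4a5 window a CCAAT box. The full Col4a5 window of 250 bases, of which 216 are printed, holds a GC box as well. Neither full window holds a TATA motif (TATAAA or TTTATA). Over the 250 bases upstream of each start, a GC box is present in 32.7% of 32851 RefSeq promoters, a CCAAT box in 33.8% and a TATA motif in 12.4%, on either strand. Among the 38 windows of the 35 collagen genes matched by symbol, 22 (57.9%) hold a GC box, 13 (34.2%) a CCAAT box and 5 (13.2%) a TATA motif.

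Col4a5 (ENSMUSG00000031274.16, X chromosome, 141475385 to 141689234, plus strand) was at 2.64, 2.96 and 2.90 CPM in heterozygous replicates 1 to 3 and at 4.86, 6.20 and 3.41 CPM in the wild type ones. The heterozygous libraries lay close together and below each wild type library, and wild type replicate 3 came nearest to them. The log2 difference was -0.77 (SE 0.20), the smallest p of any collagen gene, with an edgeR adjusted p of 0.761. Col4a6 (ENSMUSG00000031273.16, X chromosome, 141165403 to 141474076, minus strand) repeated the order of wild type libraries, at 0.859, 0.910 and 0.934 CPM in heterozygous and 1.83, 1.94 and 1.03 CPM in wild type. Its log2 difference was -0.83 (SE 0.26). Both genes are X-linked, and each genotype held 1 library with high Xist counts. Without those libraries the log2 difference was -0.98 for Col4a5 and -1.09 for Col4a6, and with Xist status as a covariate it was -0.74 and -0.79.

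Col4a1 and Col4a2 form the heterotrimer found in every vascular basement membrane. Col4a2 (ENSMUSG00000031503.13, chromosome 8, 11312805 to 11449287, plus strand) was at 20.2, 17.8 and 19.2 CPM in heterozygous and 25.8, 20.2 and 26.5 CPM in wild type libraries. Wild type replicate 2 was level with heterozygous replicate 1, and the other wild type libraries stood above all heterozygous ones. The log2 difference was -0.34 (SE 0.11; edgeR adjusted p 0.813). Col4a1 (ENSMUSG00000031502.11, chromosome 8, 11198423 to 11312826, minus strand) was at 22.7, 20.3 and 21.4 CPM against 22.7, 22.1 and 27.8 CPM. Only wild type replicate 3 stood out, and the log2 difference of -0.17 (SE 0.10) was -0.06 without it. The first exons of these genes overlap by 22 bases on opposite strands, and the library kit does not mark strand, so reads there cannot be assigned.

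Col4a4 (ENSMUSG00000067158.9, chromosome 1, 82448423 to 82586849, minus strand), a chain best known from the kidney glomerulus, was the member on the other side. It was at 1.03, 1.19 and 1.31 CPM in heterozygous and 0.793, 0.910 and 0.805 CPM in wild type libraries, so that every heterozygous library was higher. The log2 difference was 0.49 (SE 0.20) with an edgeR adjusted p of 0.844. Its partner Col4a3 had a similar difference of 0.48 with a larger error (SE 0.37), and its groups overlapped. Of Col4a3's exon bases 5.6% are shared with a transcript on the opposite strand, C430014B12Rik. The summed level of the 6 type IV chains was 43.8 to 47.9 CPM in heterozygous and 51.9 to 60.0 CPM in wild type libraries, without overlap. Col4a1 and Col4a2 make up most of this sum.

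**Figure D3:**
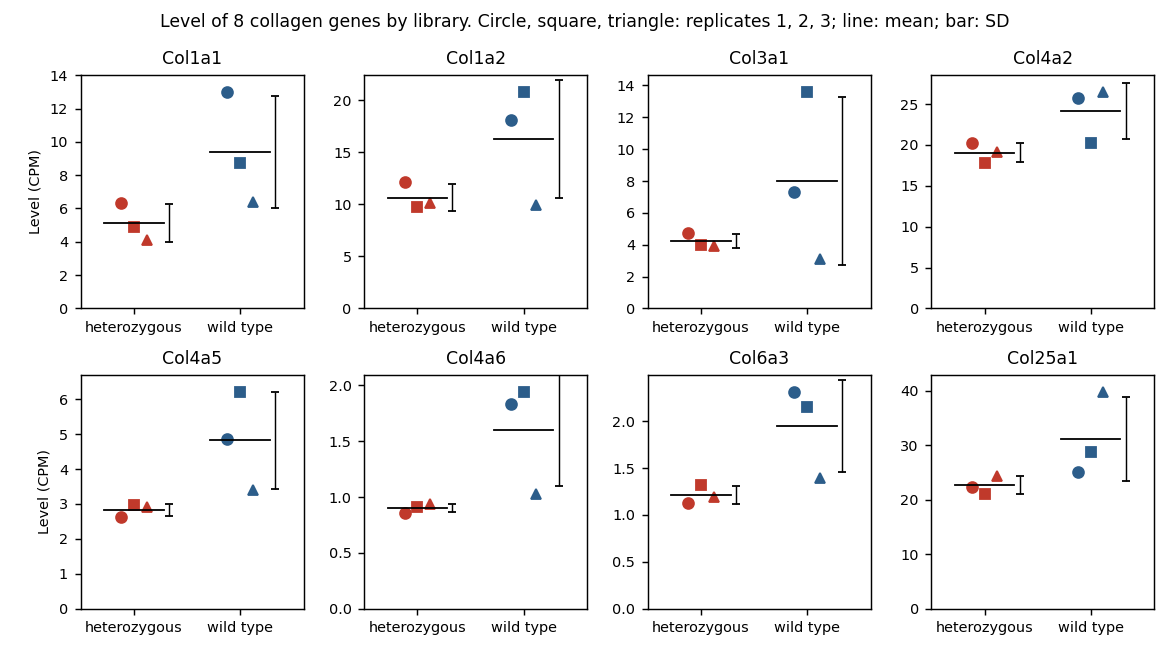
Level in CPM of 8 collagen genes in the 3 heterozygous and 3 wild type libraries, with the mean as a line and the SD as a bar. For Col1a1, Col1a2, Col3a1, Col4a5, Col4a6 and Col6a3 wild type replicates 1 and 2 lie above all heterozygous libraries. For these genes wild type replicate 3 (triangle) is the wild type library nearest to, among or below the heterozygous ones. For Col25a1 wild type replicate 3 is the highest, at 39.7 CPM.

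The 27 other chains had a median log2 difference of -0.14 over the 26 tested, with 16 below and 10 above wild type. The median was -0.06 without heterozygous replicate 2 or without wild type replicate 1, and -0.22 without heterozygous replicate 3. The summed level of the 27 chains overlapped, at 157 to 190 CPM in heterozygous and 169 to 189 CPM in wild type libraries. Type VI filaments combine the chains Col6a1 and Col6a2 with Col6a3 or one of its relatives, and these did not move together. Col6a3 (ENSMUSG00000048126.16, chromosome 1, 90765923 to 90843971, minus strand) was at 1.13, 1.32 and 1.19 CPM in heterozygous and 2.31, 2.15 and 1.39 CPM in wild type libraries. The groups did not overlap, with wild type replicate 3 again the nearest, and the log2 difference was -0.68 (SE 0.22; edgeR adjusted p 0.81). Col6a1 (ENSMUSG00000001119.7, chromosome 10, 76708792 to 76726168, minus strand) was at 39.3, 32.6 and 44.9 CPM against 31.7, 28.8 and 37.7 CPM. The groups overlapped and the log2 difference was 0.25 (SE 0.13), or 0.13 on leaving out heterozygous replicate 3, 0.16 on leaving out wild type replicate 2 and 0.365 on leaving out wild type replicate 3. Col6a2, its neighbour on the same strand, differed by 0.16 (SE 0.15). The Col6a3 relatives Col6a4, Col6a5 and Col6a6 ranged from -0.42 to 0.23 with overlapping groups.

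Transmembrane collagens are single-pass proteins whose ectodomain can be shed. Col25a1 (ENSMUSG00000058897.17, chromosome 3, 130131501 to 130599877, plus strand), made by neurons and known as a component of amyloid plaques, was at 22.4, 21.1 and 24.4 CPM in heterozygous and 25.0, 28.7 and 39.7 CPM in wild type libraries. Heterozygous replicate 3 and wild type replicate 1 were nearly level, and wild type replicate 3, the library with the highest striatal markers, was far above the rest. The difference in log2 was -0.46 (SE 0.15; edgeR adjusted p 0.818), and -0.25 without wild type replicate 3. The part of striatal tissue in this difference was not tested. Col13a1, Col17a1 and Col23a1, the other transmembrane chains, had log2 differences from -0.41 to -0.05 and overlapping groups.

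Multiplexins are basement membrane collagens with interrupted helices. Col18a1, the precursor of endostatin (ENSMUSG00000001435.15, chromosome 10, 77052178 to 77166548, minus strand), was at 2.12, 1.71 and 2.13 CPM in heterozygous and 2.59, 2.65 and 2.40 CPM in wild type libraries. The wild type libraries were close together here, and wild type replicate 3 did not fall among the heterozygous ones. Its log2 difference was -0.36 (SE 0.16; edgeR adjusted p 0.855). Its relative Col15a1 differed by -0.19 (SE 0.19) with overlapping groups.

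Fibril-associated collagens sit on the surface of other fibrils. Col12a1 (ENSMUSG00000032332.17, chromosome 9, 79598991 to 79718831, minus strand), which binds type I fibrils, was at 14.2, 13.7 and 17.4 CPM in heterozygous and 23.0, 18.6 and 15.1 CPM in wild type libraries. Its groups overlapped through heterozygous replicate 3 and wild type replicate 3, and the log2 difference of -0.32 (SE 0.15) was -0.16 without wild type replicate 1. Col14a1, which also binds type I fibrils, differed by -0.38 (SE 0.22).

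Col19a1 (ENSMUSG00000026141.13, chromosome 1, 24261890 to 24587472, minus strand), which helps inhibitory synapses to form, was at 20.1, 18.7 and 20.9 CPM against 20.8, 17.9 and 19.0 CPM. Its libraries were even, with a log2 difference of 0.05 (SE 0.09) that lay between -0.00 and 0.11 with single libraries left out. Col9a3 (ENSMUSG00000027570.15, chromosome 2, 180597790 to 180622189, plus strand) was at 7.85, 9.15 and 9.12 CPM against 8.80, 7.45 and 6.63 CPM, for a log2 difference of 0.19 (SE 0.13) that was 0.10 on leaving out wild type replicate 3 and 0.31 on leaving out wild type replicate 1. Of its exon bases 6.1% are shared with Tcfl5 on the opposite strand. The other fibril-associated chains Col9a1, Col9a2, Col16a1, Col20a1 and Col22a1 lay between -0.16 and 0.03. The short-chain collagens Col8a1 and Col8a2 differed by 0.25 (SE 0.21) and -0.17 (SE 0.26). Col7a1, the anchoring fibril of skin, differed by -0.30 (SE 0.33), Col26a1 by 0.10 (SE 0.13) and Col28a1 by 0.16 (SE 0.24).

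Chains that share a trimer were compared within each library, per kilobase of exon. The Col1a1 to Col1a2 ratio was 0.996, 0.947 and 0.775 in heterozygous and 1.36, 0.795 and 1.22 in wild type libraries, so it varied within both groups and the groups overlapped. The Col4a1 to Col4a2 ratio was 0.996, 1.01 and 0.99 in heterozygous and 0.78, 0.973 and 0.932 in wild type libraries. Heterozygous libraries were therefore the higher ones in each case, by a margin as small as that between 0.99 and 0.973. With 3 libraries against 3, no two-sided exact permutation p can be smaller than 0.1. The Col6a1 to Col6a2 ratio was 6.41, 7.60 and 7.27 against 6.24, 6.60 and 6.90, with overlapping groups. Merged exon lengths include alternative exons, so the ratios compare libraries better than they give absolute chain numbers.

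The spread among wild type libraries was a feature of many collagen genes. The coefficient of variation was larger in the wild type than in the heterozygous group for 31 of 43 members (72.1%). It was so for 62.3% of the 19232 genes tested with a mean within the range of the members' wild type means, 0.199 to 32.7 CPM. The median coefficient over fibrillar chains was 34.8% in wild type and 15.1% in heterozygous libraries, and over type IV chains 21.6% and 6.13%. For the genes within the CPM range of the members the medians were 14.7% and 11.1%, but these genes were not matched in level to either group. A count chosen after the values were seen compared wild type replicates 1 and 2 with the heterozygous libraries. It leaves out wild type replicate 3 and so does not locate this spread. Wild type replicates 1 and 2 were both above every heterozygous library for 12 members (27.9%, against 11.4% of all genes) and both below for 4 (9.3%, against 11.2%). The 12 were Col1a1, Col1a2, Col3a1, Col4a5, Col4a6, Col5a2, Col6a3, Col12a1, Col13a1, Col14a1, Col18a1 and Col25a1. Wild type replicate 3 was the highest wild type library for 16 members (37.2%, against 36.1% of all genes), among them Col11a1, Col23a1, Col24a1 and Col25a1, so it was not low in collagens as a whole.

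Genes that make, bind or break down collagen were examined from lists drawn up by role. Of 32 genes of collagen synthesis, processing and crosslinking, 21 had a fitted level below wild type and 11 above, with a median log2 difference of -0.06. Over all genes tested, 50.1% had a fitted level below wild type. At an unadjusted p under 0.05, 1 of the 32 was lower and 1 higher, near the shares over all genes (3.38% lower, 2.44% higher). The higher was Bmp1, the protease that removes the C-propeptide of fibrillar procollagens, at 74.9 ± 6.61 against 57.9 ± 7.65 CPM (mean ± SD, n = 3 each), or 0.37 in log2 (SE 0.10; edgeR adjusted p 0.789). The lower was the crosslinking oxidase Loxl1, at -0.75 (SE 0.25), followed by its relative Loxl2 at -0.67 (SE 0.35), which was not under that p. Of the 11 collagen receptors 10 were tested, 8 below and 2 above wild type, with a median of -0.10. At an unadjusted p under 0.05 this list held only Mrc2, an endocytic collagen receptor of fibroblasts, at -0.42 (SE 0.14). Itga1, a collagen-binding integrin, differed by -0.19 (SE 0.11) and Lair1, an inhibitory receptor of leukocytes, by 0.15 (SE 0.09).

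Among the matrix-degrading enzymes and their inhibitors 11 of 13 were tested, 8 below and 3 above wild type, with a median of -0.07. Of these, 5 were lower and 0 higher at an unadjusted p under 0.05, led by the gelatinase Mmp2 at -0.73 (SE 0.17), with the membrane-bound proteases Mmp15 at -0.27 (SE 0.10) and Mmp14 at -0.37 (SE 0.15). Of 15 basement membrane partners, the laminins, nidogens, perlecan and agrin, 13 lay below and 2 above wild type, with a median of -0.21 and 4 lower and 0 higher at an unadjusted p under 0.05. They included the laminin chains Lamc3 at -0.78 (SE 0.25) and Lama2 at -0.28 (SE 0.09) and the perlecan gene Hspg2 at -0.50 (SE 0.21). Of 14 matrix proteins that bind fibrils 11 lay below and 3 above, with a median of -0.36 and 2 lower and 0 higher at that p. These were the small proteoglycans Dcn at -0.79 (SE 0.27) and Prelp at -0.27 (SE 0.10), and Lum stood at -0.87 (SE 0.43). Over all genes tested, 50.1% had a fitted level below wild type. At an unadjusted p under 0.05, 3.38% of all genes were lower and 2.44% higher. By the adjusted p of edgeR, and by that of DESeq2, 0 genes of these 5 lists passed. Over the whole table edgeR called 0.0% in each direction, and DESeq2 called 0.165% lower and 0.0573% higher. Leaving out wild type replicates 1, 2 and 3 in turn gave a fibril-binding median of -0.22, -0.20 and -0.57. The median of the degrading enzymes was -0.14 on leaving out wild type replicate 2, -0.18 on leaving out wild type replicate 3 and -0.25 on leaving out heterozygous replicate 3. For collagen synthesis it was -0.025 on leaving out heterozygous replicate 1 and -0.019 on leaving out wild type replicate 1.

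Markers of cells that make brain collagen were examined in the same way. Over all genes tested, 50.1% had a fitted level below wild type, and 3.38% were lower at an unadjusted p under 0.05. DESeq2 called 0.165% of all genes as lower. No marker of meningeal fibroblasts, pericytes and smooth muscle or endothelium passed edgeR's adjusted p, and DESeq2 called 1 of them, the pericyte gene Vtn, as lower (adjusted p 0.0172). All 16 meningeal fibroblast markers had a fitted level below wild type (median -0.56 in log2), and 8 were lower at an unadjusted p under 0.05. The median was -0.27, with 3 lower at that p, without wild type replicate 2, and -0.75, with 16 lower, without wild type replicate 3. Their summed level was 477 to 523 CPM in heterozygous libraries and 494 to 837 CPM in wild type libraries, being 715, 837 and 494 CPM in replicates 1 to 3 of the latter. Wild type replicate 3 thus lay within the heterozygous range for the sum of these markers. It also lay within that range for Col1a2, below it for Col3a1 and above it for Col6a3. Dcn and Lum are in this list and in the list of fibril-binding proteins. Of 14 pericyte and smooth muscle markers 13 lay below wild type (median -0.42, or -0.25 without wild type replicate 2, and 7 lower at an unadjusted p under 0.05), with sums of 281 to 289 CPM against 295 to 364 CPM. Of 14 endothelial markers 11 lay below (median -0.12, or -0.19 without heterozygous replicate 3, and 5 lower at that p), with sums of 252 to 270 CPM against 260 to 287 CPM. Single endothelial markers ran from -0.55 to 0.03 in log2. The transporters Slco1a4, Mfsd2a and Slc2a1 lay near the upper end of that range, at 0.00, 0.03 and 0.03, and do not stand for the list. For 6 of the 14 endothelial markers every heterozygous library was below every wild type library, and for 0 every one was above. Over all genes tested these shares were 5.85% and 5.88%. Of 8 choroid plexus markers 7 were tested, 6 below and 1 above wild type, with 1 lower at an unadjusted p under 0.05. Their median of -0.52 was -0.32, -0.30 and -0.95 without heterozygous replicates 1, 2 and 3 in turn. Choroid plexus markers summed to only 3.57 to 8.50 CPM in heterozygous and 5.90 to 12.9 CPM in wild type libraries. Otx2, which defines that tissue, was at 0 in 3 libraries. No other marker was at 0 in any library. The part of these cell types in the collagen differences was not tested.

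**Figure D4:**
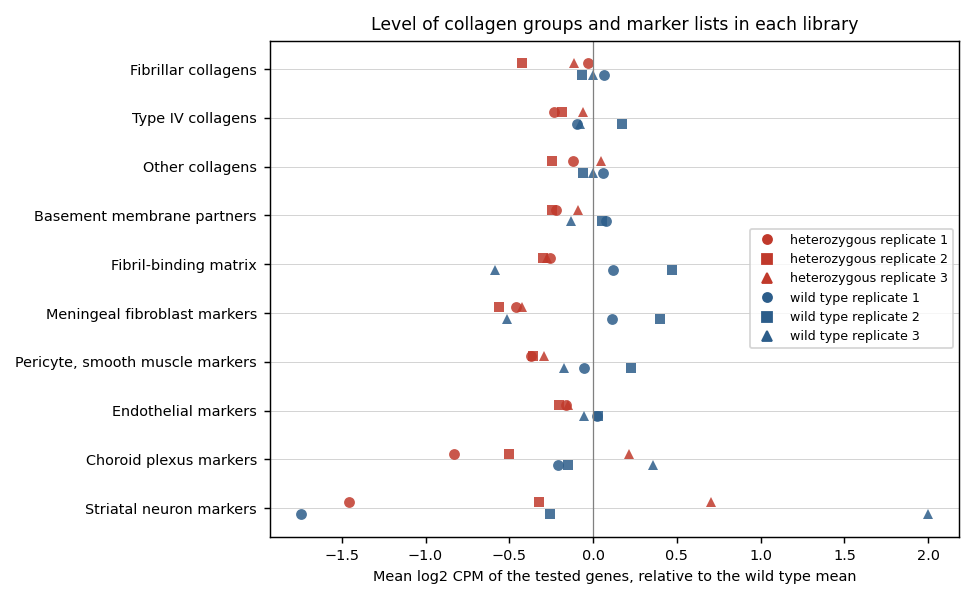
Mean log2 CPM of the tested genes of each list in each library, set to 0 at the mean of the 3 wild type libraries. Meningeal fibroblast markers lie between -0.56 and -0.42 in heterozygous libraries and at 0.11, 0.40 and -0.51 in wild type replicates 1 to 3. Fibrillar collagens as a group lie between -0.42 and 0.07 and overlap between genotypes, and striatal neuron markers run from -1.74 in wild type replicate 1 to 2.00 in wild type replicate 3.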

How the data were processed

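The authors deposited 1 table per library, holding unnormalized read counts per gene. Per the labels' protocols, Trizol RNA was cleared of DNA with DNase I and went through the TruSeq RNA Library Prep Kit v2; that kit keeps no strand information. Per the submitters' processing notes Bowtie2 2.3.4.3 and featureCounts were used, beside FastQC and DESeq2, on builds mm10 and GRCm38.p6. For their settings, the sources used here give nothing. Exons of 13 members overlap another gene, by at most 6.1% of their bases, and such reads may be lost or misassigned.

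All 55450 identifiers matched GENCODE M21. Genes were kept by filterByExpr (minimum count 10, minimum total 15), scaled with TMM and tested with the quasi-likelihood test of edgeR 4.0.16 in R 4.3.3, without covariates, with Benjamini-Hochberg adjustment over all 27939 genes and a threshold of 0.05. SE is the log2 difference divided by the root of its F. CPM uses effective library sizes. The fit was tested on simulated counts, drawn with its own fitted dispersions, for the median size of planted log2 differences. That check does not cover which genes pass the threshold here. limma 3.58.1 and DESeq2 1.42.0 were alternatives. A count of 0 allows up to 3 counts, or 0.0326 to 0.0364 CPM, for counting error only.

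Members and lists were chosen with earlier results of these data known. Values in every library are given for Setd5 and for members called by any tool. In each group they are also given for the 4 members with the highest level per exon length and the 4 with the smallest p. From each list drawn up by role, up to 3 genes by smallest p are named. Genes named from the lists of cell type markers do not follow this rule. Replicate numbers follow record order and pair no libraries.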

Additional observations from a re-analysis of the deposited data

How the results depend on the processing

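Of 289 values (17 collagen genes, each under 17 alternatives), 288 kept their direction. The exception was Col19a1, whose log2 difference ran from -0.003 without wild type replicate 2 to 0.108 without wild type replicate 1. These 17 genes were chosen in the same data by level or smallest p, and many alternatives refit the same counts. Their kept direction therefore says little about the other members. Over all members tested, 25 were lower and 19 higher without heterozygous replicate 2. Without wild type replicate 2, 31 were lower and 13 higher. The number of genes called over the whole table was 0 in the main analysis, 62 in DESeq2, 29 in the likelihood ratio test, 6 when every gene with at least 1 count was tested, 2 in limma-voom with quality weights, and 0 to 2 with single libraries left out. Of these, collagen genes were 1 in DESeq2 (Col1a1) and 0 otherwise. With so few calls over the whole table, the absence of a call says nothing about stability. The count of collagen genes lower at an unadjusted p under 0.05 was 4 to 12 with single libraries left out, against 9. The count of higher ones was 2, 0 to 3 with single libraries left out, and 1 each in DESeq2, with at least 1 CPM in 3 libraries, with library totals, in limma-voom with quality weights and without the libraries with high Xist. With single libraries left out, the median was -0.22 to -0.07 over all collagen genes, -0.35 to -0.165 over type IV chains and -0.22 to -0.06 over the other chains. The fibrillar median was -0.34 to 0.17 with single libraries left out and 0.083 without the libraries with high Xist. The cause was not tested. Under the other scalings the median over all genes moved by less than 0.1 and the fitted directions of the 43 members stayed at 26 lower and 17 higher. Both alternatives on Xist were chosen after seeing the data. No paired analysis was possible because the labels carry no replicate numbers shared between genotypes. With 3 libraries a genotype, single values cannot reach a permutation p below 0.1.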
